A study of Mus musculus and Homo sapiens with 6 samples.

Results

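The clustered protocadherin genes of the mouse lie side by side on chromosome 18 in 3 groups called alpha, beta and gamma. They were taken here as the protein-coding genes of that chromosome whose symbols start with Pcdha, Pcdhb or Pcdhg, which gave 57 of 21900 protein-coding genes, 14 in the alpha, 22 in the beta and 21 in the gamma cluster. The assay was ATAC-seq: the enzyme Tn5 cuts DNA where it is accessible and attaches sequencing adapters there. The cells were NMuMG, an epithelial line from the mouse mammary gland, with the cell line name as the genotype label, at fewer than 10 passages and at time 0 h, grown with serum. There was 1 library each from 25000, 50000, 75000 and 100000 cells, made to tune the protocol. Replicates at the same cell number are lacking, so values carry no error and cell numbers were not tested against each other. The MDA-MB-231 samples, 2 libraries of a human breast cancer line labelled with GATA3, were not analysed here.

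Clustered protocadherins are cell surface proteins of the cadherin superfamily, best known from neurons, where each cell uses its own small set of them and the proteins bind their like on other cells. Each alpha and gamma gene has a large first exon of its own with its own promoter, joined by splicing to short last exons that the whole cluster shares, while the beta genes have a single coding exon and share none. In neurons the promoters are chosen with the help of the insulator protein CTCF, cohesin and distant enhancers, one of which lies beyond the shared alpha exons and others beyond the gamma cluster. The last genes of the alpha and gamma clusters, Pcdhac1, Pcdhac2, Pcdhgc3, Pcdhgc4 and Pcdhgc5, form the C-type group, which is used more uniformly among cells than the others.

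The gene layout sets what can be counted. In mm10 the alpha cluster runs from 36930285 to 37188897, the beta cluster from 37264998 to 37521419 and the gamma cluster from 37661775 to 37841873. The 14 alpha genes have 14 different lower ends, spread over 213.4 kb, but their upper ends lie within 1.24 kb of each other. The 21 gamma genes have 21 different lower ends, spread over 157.8 kb, and upper ends within 0.01 kb. The lower end is the start of the exon that belongs to a member alone, and the upper end is shared, so a peak at the shared end would be counted once for each member of a cluster. All 3 clusters are read in the direction of rising coordinates, which is background knowledge, since the gene table gives no strand.

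Each library is given as a list of peaks with a score from the authors' peak caller, 38878 to 45530 peaks long. The score is the authors' own value, with a lowest listed score of 8 in each list, and is used here to rank peaks within a list. The numbers that name the peaks run without a gap in each list. When the numbers were given is not stated in the sources used here, so peaks removed before that would not show. The lists carry no read counts, and the depth behind them is unknown.

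The label of the line was checked against markers of epithelium and of other cell types. A gene-end peak is one that overlaps the window from 1 kb below to 1 kb above an annotated end of a gene. All 4 libraries had one at 43.9% of all protein-coding genes, at 8 of 14 epithelial markers (57.1%, exact Clopper-Pearson 95% interval 28.9 to 82.3), among them the E-cadherin gene Cdh1 and the keratin gene Krt8, and at 0 of 10 neuronal markers, 1 of 7 fibroblast markers (Col1a1), 1 of 5 blood markers (Spi1) and 0 of 4 endothelial markers. The epithelial marker genes Epcam and Esrp1 had no listed peak in any library. The neuronal genes Tubb3 and Snap25 had gene-end peaks with scores of 9 to 12 in 3 and 2 libraries. Counted anywhere in the gene, peaks in all 4 libraries were found at 10 of 14 epithelial, 4 of 10 neuronal and 3 of 7 fibroblast markers, against 54.5% of all protein-coding genes. The synaptic genes Syp, with highest scores of 50, 42, 36 and 49, and Syt1, with 36, 68, 34 and 53, were among the neuronal ones, as were Rbfox3 and Snap25 with scores of 9 to 14, and the endothelial cadherin gene Cdh5 had 47, 54, 50 and 57.

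One clustered protocadherin gene, Pcdhgc3, had a gene-end peak, and it had one in all 4 libraries. The other 56 members had none in any library, as did 47.3% of protein-coding genes. The same single gene was found at each cell number, against a background of 46.9%, 48.9%, 48.4% and 49.5% of all protein-coding genes at 25000, 50000, 75000 and 100000 cells. Every library had one at 43.9% of the protein-coding genes, at 49.6% of the 454 others on chromosome 18 and at 1 of the 57 members (1.75%, exact Clopper-Pearson 95% interval 0.0444 to 9.39). The interval covers counting error only, and members that share an end are not independent of each other. No member had a peak at its upper end. Of all protein-coding genes, 23.7% had an upper-end peak in all 4 libraries, but the gene table gives no strand. That share therefore mixes gene starts with far ends, and is not a like comparison for the members, whose upper ends are their far ends. For a start alone the background is 45.9% of 17492 protein-coding genes of other chromosomes with a listed start, counted over every start listed for a gene.

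**Figure D1:**
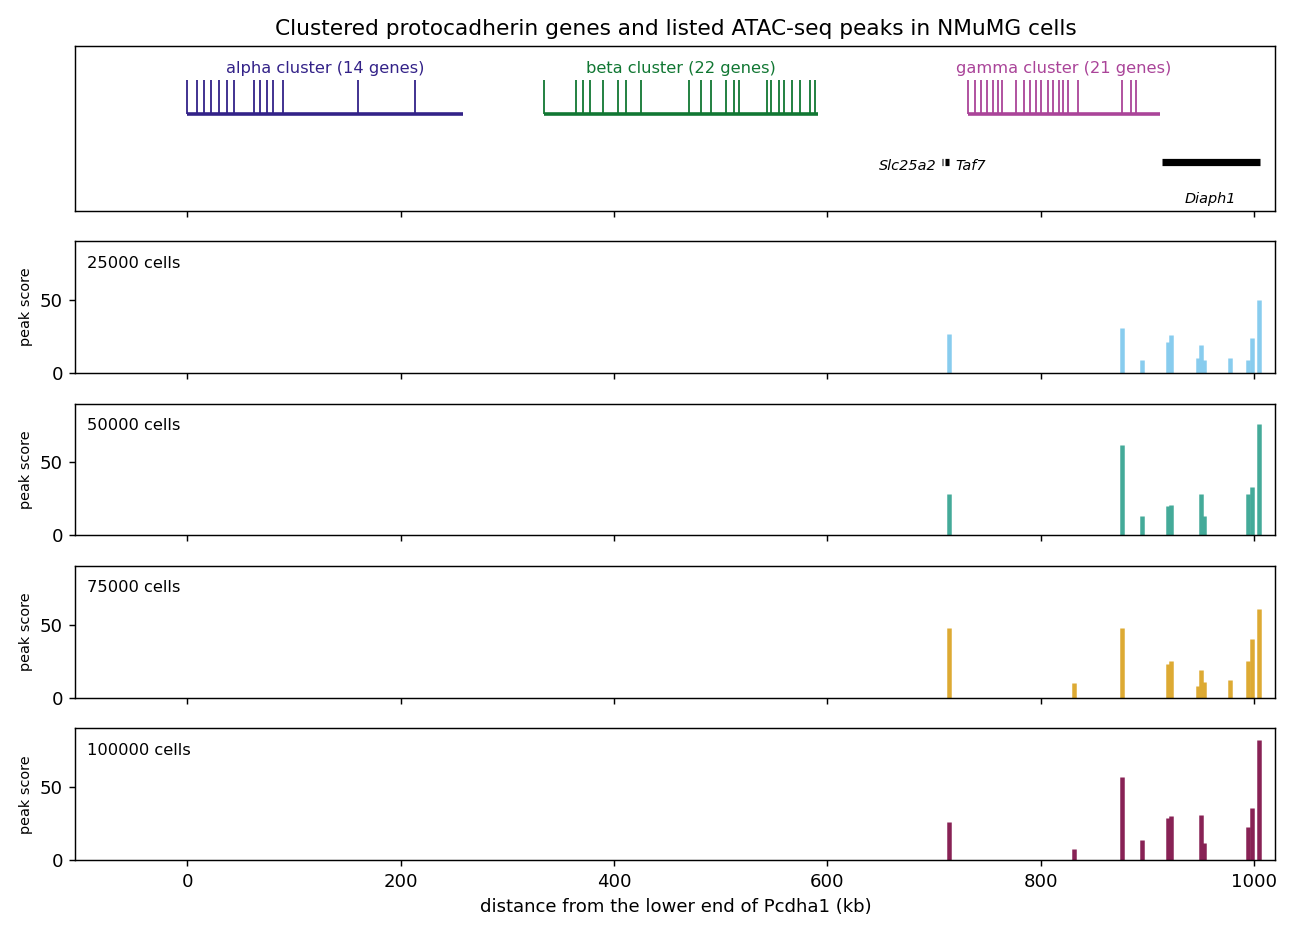
The top panel shows the 3 clusters as lines with a tick at the lower end of each member, and the neighbouring genes Slc25a2, Taf7 and Diaph1 as black bars; the other 4 panels show the peaks of each library at their distance in kb from the lower end of Pcdha1, with the height of a bar giving the score. No bar stands over the alpha or beta cluster in any library, and the tall bar inside the gamma cluster, with scores of 31, 62, 48 and 57, is the peak at Pcdhgc3.

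Pcdhgc3 encodes a C-type gamma protocadherin and is known as the member of the gamma cluster that is also widely used outside the nervous system. Its peak spanned the lower end of the gene at 37806410 in every library. The peak lay at 37806001 to 37806600 at 25000 cells, at 37805901 to 37806650 at both 50000 and 100000 cells and at 37805901 to 37806600 at 75000 cells. It thus reached 409 to 509 bp below the annotated start and 190 to 240 bp into the gene. The score was 31 at 25000 cells, 62 at 50000 cells, 48 at 75000 cells and 57 at 100000 cells.

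The Pcdhgc3 peak ranked high in each list. It stood at the 81.9 percentile of the peaks of its list at 25000 cells, at 94.2 at 50000 cells, at 91.1 at 75000 cells and at 92.9 at 100000 cells. Set against the highest gene-end peak of every protein-coding gene that had one, it stood at the 60.1, 82.1, 75.7 and 78.8 percentile. The median over those genes was a score of 26, 32, 30 and 33, below the score of Pcdhgc3 in each library. The 25000-cell library gave the lowest rank by both measures, and how far libraries of the same cell number would differ is not known.

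The alpha cluster held no listed peak. None of the 258.6 kb from Pcdha1 to the shared last exons was covered in any library, and neither were the 100 kb before it nor the 76.1 kb between the alpha and beta clusters. The lower end of Pcdha1, the first gene, was 128.1 to 128.2 kb from the nearest peak, that of Pcdha12 218.1 kb and those of the C-type genes Pcdhac1 and Pcdhac2 288.0 and 341.5 to 341.6 kb. The 5 C-type genes therefore differed among themselves, with a peak at the start of Pcdhgc3 and none listed at Pcdhac1, Pcdhac2, Pcdhgc4 or Pcdhgc5.

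The beta cluster, with 22 genes over 256.4 kb, likewise held no listed peak. Pcdhb1, the first of them, had its lower end 378.9 kb from the nearest peak, the farthest of the 57 members. The distance fell along the cluster to 125.5 kb at Pcdhb22, since the nearest peak for each of the 22 genes was the one at Taf7 beyond the cluster. In each library the lower ends of all 14 alpha and all 22 beta genes were over 100 kb from a peak.

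By the nearer of its annotated ends, the median member was 149.3 to 149.4 kb from a peak. The median over all protein-coding genes was 1.75, 1.21, 1.34 and 1.08 kb from 25000 to 100000 cells. Between 86.5% and 87.7% of protein-coding genes were nearer to a peak than this median member. The clusters differed by this measure, with medians of 181.0 kb for alpha and 212.0 to 212.1 kb for beta genes. For gamma genes the median was 7.43 kb, and 60.5% to 63.3% of protein-coding genes were nearer. A distance over 100 kb was found for 16.7%, 15.3%, 15.8% and 15.3% of protein-coding genes, that is for 3650, 3344, 3456 and 3357 genes, the 36 alpha and beta genes among them.

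**Figure D2:**
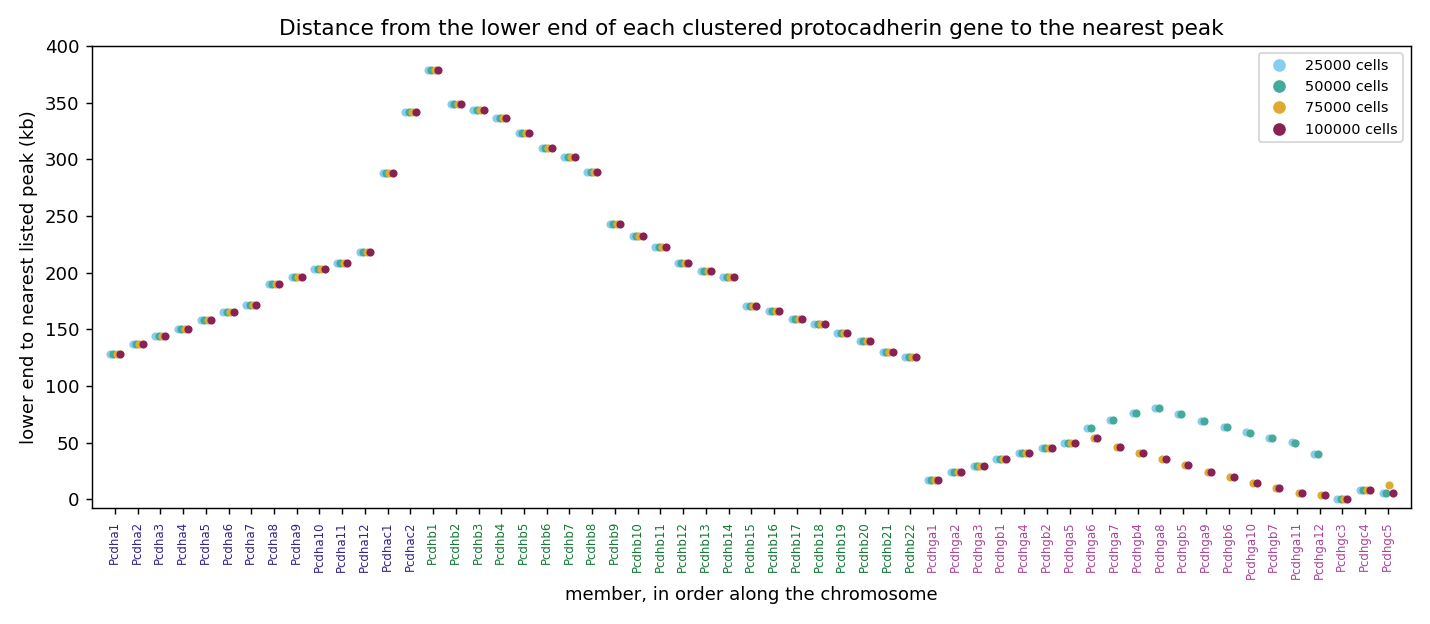
Each of the 57 members is shown in chromosome order on the x axis, with the distance in kb from its lower end to the nearest listed peak on the y axis and 1 point per library. Alpha and beta genes lie between 125.5 and 378.9 kb in each library, gamma genes lie at 80.3 kb or less, and Pcdhgc3 is at 0; from Pcdhga6 to Pcdhga12 the 75000-cell and 100000-cell libraries separate from the others because of the low-scoring peak at the pseudogene Pcdhgb8.

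The alpha and beta genes lay in a single stretch without peaks. Over all 4 libraries merged, no peak was listed from 36802151 to 37643850 on chromosome 18, a length of 841.7 kb. It contains the lower ends of 41 protein-coding genes, 36 of them the alpha and beta members. The others were Slc25a2, Taf7 and the read-through genes Gm37013, Gm38666 and Gm38667, which begin beside Pcdha4, Pcdha6 and Pcdha7. On the lower side the stretch ended at a peak with scores of 48, 55, 59 and 71 from 25000 to 100000 cells, over the non-coding gene Vaultrc5. On the upper side it ended at the peak of Taf7. Both edges were therefore found at every cell number, at the 92.3 to 96.2 percentile of the lists on the lower side and at the 70.8 to 91.1 percentile on the upper side.

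Stretches of this length were common in the genome, but most held few genes. There were 372 peak-free stretches at least as long on chromosomes 1 to 19, X and Y, 13 of them on chromosome 18, with a median of 2 lower ends of protein-coding genes in each and none in 84. By the number of such ends the stretch over the alpha and beta clusters ranked eighth of 4504 peak-free stretches of 100 kb or more, level with another of 41 ends on chromosome 2. Of the 7 ahead of it, 5 held mainly olfactory or vomeronasal receptor genes, which are little used outside sensory tissue. The leading stretch, on chromosome 2, held 130 ends, 127 of them of olfactory receptor genes (Olfr), and another on chromosome 7 held 54, of which 41 were vomeronasal receptor genes (Vmn). This ranking was chosen after the values were seen and is a description. The count of 41 takes in Taf7 and the read-through genes that begin beside alpha members, so the rank depends on counting them.

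The gamma cluster held 3 regions with a peak when the lists were merged, at the pseudogene Pcdhgb8, at Pcdhgc3 and inside Pcdhgc5. The region at 37761401 to 37761900 spanned the lower end of Pcdhgb8, a transcribed pseudogene and so not a member. It had a peak of 10 at 75000 cells and of 8 at 100000 cells, and none listed at 25000 and 50000 cells. The region at 37824751 to 37825600, about 5.2 kb above the start of Pcdhgc5 and 1511 bp from the non-coding gene Gm29994, had scores of 9 at 25000 cells, 13 at 50000 cells and 14 at 100000 cells, with none listed at 75000 cells. Both stood at or below the 43.2 percentile of their lists.

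Between these regions the gamma genes of the A and B types had no peak at their starts. The 116.9 kb from the Taf7 peak to Pcdhgb8 held the lower ends of 17 members without a peak at any of them. The next 44 kb held that of Pcdhga12, and the 18.1 kb above Pcdhgc3 held those of Pcdhgc4 and Pcdhgc5. Pcdhgc4 started 8.43 to 8.48 kb from the edge of the Pcdhgc3 peak, and Pcdhga1 started 17.2 to 17.3 kb from that of Taf7. The longest distance in the cluster at 25000 cells was 80.3 kb, at Pcdhga8, which was 35.7 kb at 75000 and 100000 cells, where the Pcdhgb8 peak was listed.

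Counting peaks anywhere in a gene gave another number for the gamma cluster, because its genes lie inside one another. By this count 21, 21, 19 and 21 members had a peak from 25000 to 100000 cells, all of them gamma genes, against 58%, 60.1%, 59.3% and 60.7% of all protein-coding genes. In all 4 libraries it was 19 members, against 54.5%. The peak these 19 have in common is the one at the start of Pcdhgc3, which falls inside the 18 gamma genes that begin before it. Pcdhgc4 and Pcdhgc5, which begin after it, had the region inside Pcdhgc5 in 3 libraries. The 36 alpha and beta genes had none by this count either, where 35.8% of protein-coding genes had none in any library.

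**Figure D3:**
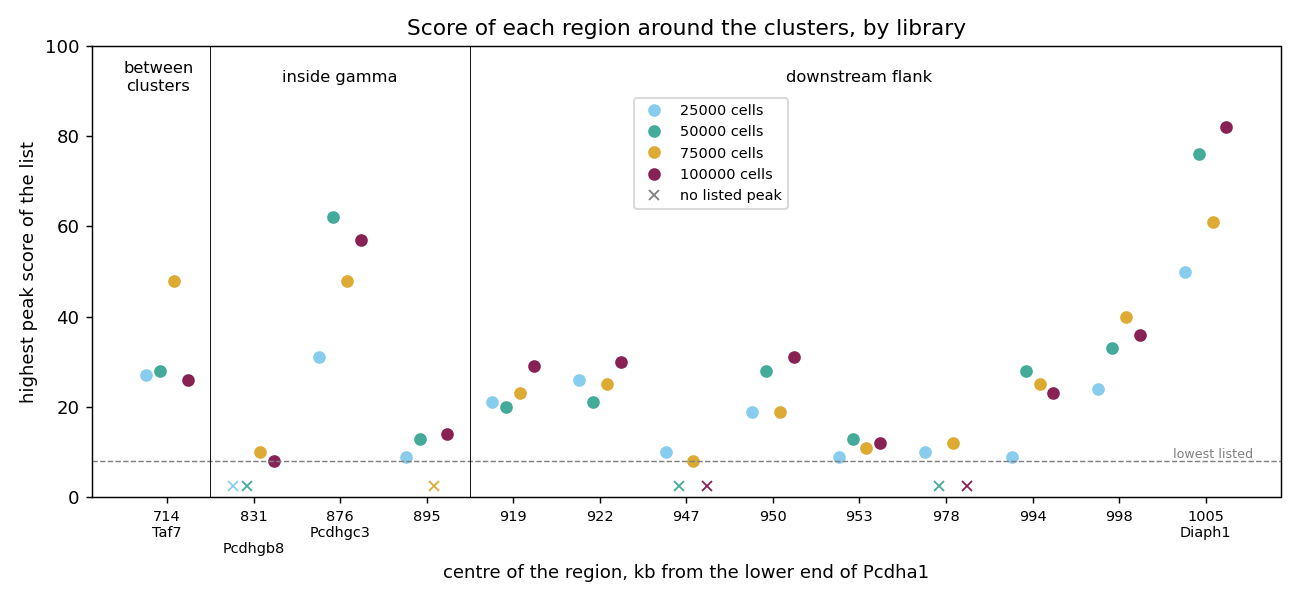
The 13 merged regions of the clusters and their flanks are shown in chromosome order on the x axis, by the distance in kb of their centre from the lower end of Pcdha1, with the highest peak score in each library on the y axis and a cross for no listed peak. The peaks at Pcdhgc3 (31 to 62) and at the upper end of Diaph1 (50 to 82) have the highest scores, and each of the 4 regions with a cross has scores of 14 or less.

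Genes of other kinds that lie among the clusters and beside them had peaks of their own. Taf7, which encodes a subunit of the general transcription factor TFIID, lies between the beta and gamma clusters, and its upper end at 37644204 was covered by a peak with scores of 27, 28, 48 and 26 from 25000 to 100000 cells. This was the single region between the clusters, found in all 4 libraries, at the 70.8 to 91.1 percentile of the lists. The Pcdhgc3 peak scored higher than that of Taf7 in 3 libraries and the same, 48, at 75000 cells. Slc25a2, a mitochondrial carrier gene just below Taf7, had no listed peak in any library.

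Beyond the gamma cluster the listed peaks became dense. The 100 kb above the cluster held 9, 7, 10 and 8 peaks from 25000 to 100000 cells, and those below the alpha cluster 0. These peaks fell into 9 regions, 7 of them found in all 4 libraries, and all lay over Diaph1, which encodes a formin that builds actin filaments. The peak at the upper end of Diaph1, at 37935051 to 37935900 at 50000 cells, scored 50, 76, 61 and 82 and was the highest of the whole window in each library. The regions nearest to the gamma cluster, at 37849301 to 37850000 and at 37851951 to 37852600, had scores of 21, 20, 23 and 29 and of 26, 21, 25 and 30. Inside Diaph1 a region at 37927601 to 37928300 had 24, 33, 40 and 36, one at 37879951 to 37880650 had 19, 28, 19 and 31, and one at 37924151 to 37924750 had 9, 28, 25 and 23. Whether any of them is one of the enhancers known from neurons was not tested, since no positions for those were used here. Hdac3, a histone deacetylase gene that follows Diaph1, had a gene-end peak of 46, 49, 32 and 42.

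Per length, the clusters held fewer peaks than the genome. Inside the 3 clusters together, 0.695 Mb, there were 2, 2, 2 and 4 peaks from 25000 to 100000 cells, or 2.88 per Mb in the first 3 libraries and 5.75 at 100000 cells. Chromosome 18 held 13.4, 15.0, 14.5 and 16.0 peaks per Mb between its first and last peak, and chromosomes 1 to 19, X and Y together 15.2, 17.2, 16.2 and 17.8. The gamma cluster alone held 11.1 per Mb in the first 3 libraries and 22.2 at 100000 cells, where 2 overlapping peaks of score 8 at Pcdhgb8 were listed apart. Of its length 0.555%, 0.694%, 0.666% and 1.14% was covered. The alpha and beta clusters held 0, and the gamma cluster was below the genome in the first 3 libraries.

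Of the 13 regions of the clusters and flanks, 9 had a peak in all 4 libraries, 1 in 3 and 3 in 2, and none was found in a single library. Of the 55702 merged regions of the genome, 46.3% had a peak in all 4 libraries and 26.2% in 1. The 4 regions of the window that were missing from some libraries had scores of 8 to 14, and the 9 others had a score of 19 or more in at least 1 library, except the one at 37883401 to 37883950, with 9, 13, 11 and 12.

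The absence of a listed peak has limits that apply to every member named. A region with signal below a score of 8 is not listed, and a start that is open in few cells of a culture cannot be told apart from a closed one. The members of a cluster resemble each other in sequence, and how reads that match several places were treated is not given in the sources used here, so the absence of a peak at single members is uncertain for that reason too.

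Another cluster with the same layout of own first exons and shared last exons is that of the Ugt1a genes of chromosome 1. They encode enzymes that conjugate bilirubin and drugs, and had peaks at the starts of a late gene and of earlier ones. Of its 9 genes, Ugt1a1 had peaks of 19, 19, 20 and 9 at its start, and Ugt1a8 and Ugt1a6b had none in any. Ugt1a7c had peaks of 10 and 12, and Ugt1a6a of 8 and 9, at 25000 and 100000 cells. At 100000 cells 7 of the 9 had one, but for Ugt1a10, Ugt1a9, Ugt1a5 and Ugt1a2 it was a single peak of score 8 at 88220301 to 88220650, near the end that they share. Of the 39 Hox genes, clusters of developmental transcription factor genes, 3 (7.69%, 1.62 to 20.9) had such peaks at each cell number, among them Hoxa5 and Hoxa6, which share a peak with 15, 22, 10 and 14. Hoxa2, Hoxa3 and Hoxa7 had none at their ends. The background for all 4 libraries is 43.9%, and that at 100000 cells 49.5%, for Ugt1a and Hox genes alike.

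Protocadherin genes that stand alone, outside the clusters, had gene-end peaks in part. Of 12, 3 (25%, 5.49 to 57.2) had one in all 4 libraries, 2 in some and 7 in none. Over all protein-coding genes 43.9% had one in all 4 libraries and 47.3% in none. Pcdh10 scored 29, 33, 38 and 37, Pcdh7 23, 17, 23 and 35, and Pcdh1 17, 23, 8 and 39. Pcdh1 also lies on chromosome 18 and encodes a protocadherin of airway and other epithelia. Pcdh8 had no listed peak, Pcdh9, a gene of 879.1 kb, had 1 or 2 in its interior at each cell number, and Pcdh12, an endothelial protocadherin gene, had peaks inside the gene in 2 libraries, with scores of 12 and 13. Of 15 genes of the related classical cadherins and catenins, 4 (26.7%) had gene-end peaks at each cell number, namely Jup, Ctnna1, Cdh1 and Cdh2. Peaks anywhere in the gene were found at each cell number for 10 (66.7%). The shares over all protein-coding genes were 43.9% and 54.5%. Cdh3 and Cdh5 had interior peaks in every library, and Cdh4 had none.

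**Figure D4:**
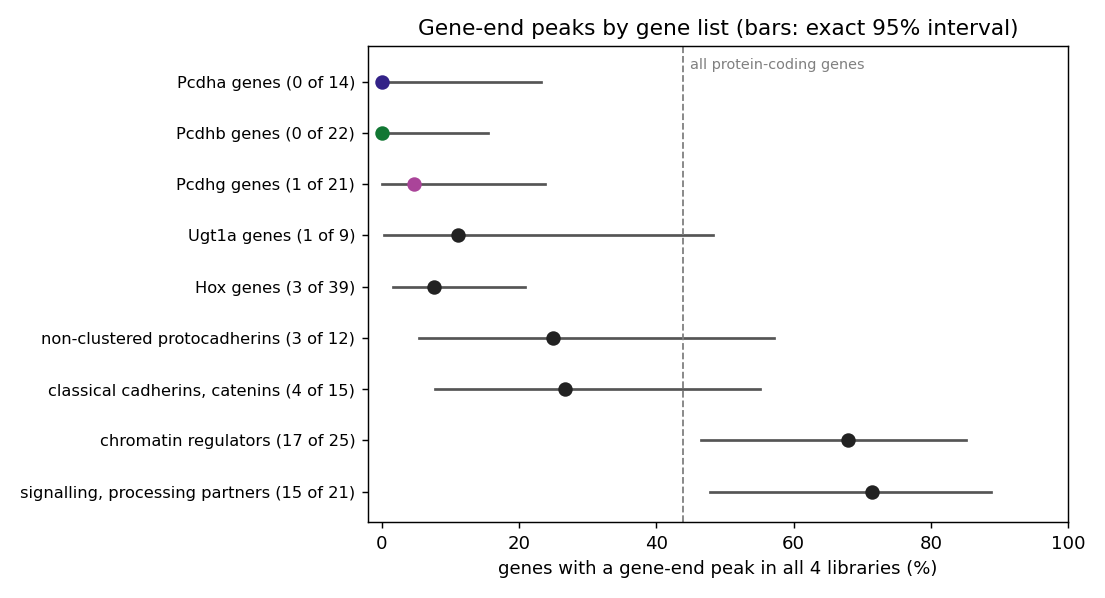
Each row gives a gene list with the number of its genes with gene-end peaks at every cell number, the x axis gives this as a percentage, the bars are exact 95% intervals that cover counting error only, and the dashed line is the 43.9% of all protein-coding genes. The 3 protocadherin clusters are at 0%, 0% and 4.76%, and the lists of chromatin regulators and of partners are at 68% and 71.4%.

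Genes for the proteins known to control the clusters mostly had gene-end peaks. Of 25 genes for cohesin and its loaders, CTCF, DNA methylation, histone methylation and related repression, 17 (68%, 46.5 to 85.1) had one in all 4 libraries, 2 in some and 6 in none, against the 43.9% of all protein-coding genes. Peaks anywhere in the gene were found in all 4 libraries at 23 of the 25, against 54.5%, and in at least 2 libraries at all 25. The DNA methylation genes were split. Dnmt1, Dnmt3a and Tet1 had no gene-end peak in any library and Dnmt3b had one at 50000 cells only, while Tet2 and Tet3 had one in every library. The cohesin subunit gene Smc3 scored 75, 111, 96 and 119, and Pds5b, for a regulator of cohesin, 38, 52, 34 and 51. Smchd1, for a chromosomal protein known to repress the clusters, scored 39, 46, 52 and 45. Ctcf, named after its values were seen, had 16, 34, 24 and 42. Rad21, Stag1 and Nipbl, also of the cohesin system, lacked peaks at both annotated ends but had interior ones in every library, the best of which scored 38 to 78 in Rad21, 50 to 87 in Stag1 and 17 to 38 in Nipbl.

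Of 21 genes for proteins that bind clustered protocadherins, signal from them or cut them, 15 (71.4%, 47.8 to 88.7) had gene-end peaks at every cell number, 2 in some and 4 in none. Pdcd10, whose product binds the shared tail of these proteins, scored 57, 93, 89 and 78, though at 25000 cells the peak lay nearer to the end of its neighbour Serpini1. Ptk2, the focal adhesion kinase gene, scored 43, 72, 72 and 71, Wasf1, for a subunit of the WAVE actin complex, 47, 63, 76 and 62, and Aph1a, for a subunit of gamma-secretase, 46, 67, 47 and 62. Axin1, for a scaffold of Wnt signalling that the PCDHGC3 protein is known to bind, lacked a peak at either annotated end but had peaks of 91, 98, 89 and 99 inside the gene. Fyn and Cyfip2 had none at their ends and low peaks inside the gene, with scores of 8 to 14, in 3 and 2 libraries. These counts stand beside the 43.9% of all protein-coding genes as descriptions, and no test was made on them.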

How the data were processed

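The data are 4 lists of ATAC-seq peaks of NMuMG cells, 1 per library. Per the submitters' processing notes, the tools included Bowtie 0.12.8, Picard 1.107, bedtools 2.17.0, cutadapt and SAMtools, and mm10 is the mouse build named; the word peakdeck in the names of the lists is that of a peak caller; what each tool did, the caller's settings and whether cuts were shifted for Tn5 is not given in the sources used here. For each peak the authors deposited coordinates and a score, a whole number of unstated origin. Gene positions came from RefSeq's gene table for GRCm38.p6, which is mm10. No sequence was printed, since the tables used here hold none for these genes.

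Members were matched by symbol. A gene-end peak is one with at least 1 bp within 1 kb of either annotated end. Flanks were 100 kb, and peaks were assigned to clusters by their centre. Densities divide by the length between first and last peak of a chromosome. Score percentiles are mid-ranks within a list. Lists were merged where peaks overlapped. Shares have exact Clopper-Pearson 95% intervals, and there was no test, since each cell number has 1 library.

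Members and lists were chosen with earlier results of these data known. Members with a peak at their own end were named, with regions inside or between the clusters found in at least 2 libraries, the 6 highest-ranked in the flanks and, per list, up to 4 genes with peaks in all 4 libraries and up to 3 with none, in list order. A few of the genes so selected are left out of the text. Alternatives were other windows, flanks, peak sets and overlaps, and leaving out each library. Overlap counting was checked on constructed peaks. Python 3.11.15 and SciPy 1.17.1 were used.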

Additional observations from a re-analysis of the deposited data

How the results depend on the processing

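The count of members with a gene-end peak was 1 under windows of 500 bp and 2 kb, peak centres, peaks scoring at least the median of their list, equal list lengths and leaving out each library in turn. Leaving out a library could not change this count, since the same single member had the peak in every library. Peak sets limited to higher scores could only lower it. Counting peaks anywhere in the gene gave 21, 21, 19 and 21 members from 25000 to 100000 cells and 19 in all libraries, because gamma genes lie inside one another. With peaks at or above the median score, 1 peak was left inside the clusters in each library, the flanks held 5 at 25000 and 6 at 75000 cells, 1 region was found in fewer than 4 libraries, and the mean density fell to 1.44 per Mb in the clusters (from 3.60), 7.23 on chromosome 18 (from 14.7) and 8.61 in the genome (from 16.6). With equal list lengths the clusters held 2 peaks at 100000 cells. Flanks of 50 kb held 5, 4, 5 and 4 peaks and flanks of 200 kb 22, 18, 25 and 23, which follows from their length. Of 136 values under alternatives, the other 112 stayed within 1.5 times, though some of these, such as member counts with a library left out, could not change. Leaving out a library gave 9 to 10 regions found in all others. No paired analysis was possible because each cell number has 1 library. Unknown depth limits every absence of a peak.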

Other observations

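The read-through genes of the same locus, Gm37013, Gm38666 and Gm38667, begin beside Pcdha4, Pcdha6 and Pcdha7 in the alpha cluster and end with the gamma cluster. They had no gene-end peak in any library, and their 3, 3, 3 and 5 peaks from 25000 to 100000 cells were those of Taf7 and of the gamma cluster.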
